A study of Rattus norvegicus with 29 samples.

Results

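St18 encodes a zinc-finger transcription factor of the Myt1 family, and the open chromatin regions (OCRs) examined here are the 22 that overlap a 1-Mb stretch of rat chromosome 5 around the OCR named by the study at this gene. The St18 OCR lies at chr5:12563213-12564343 (rn6), and the window reaches 500 kb to either side of it (chr5:12063000-13064000). The members were chosen by their position around the St18 OCR. That OCR is one the study names for its accessibility in METH-treated rats, so its METH comparison in SVZ is a description of the value behind the choice of the centre and not independent evidence. They are 22 of the 98237 OCRs of the series. Each is called below by the distance in kb of its centre from the centre of the St18 OCR, with a minus sign towards lower coordinates.

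The assay was ATAC-seq, which tags open chromatin through the insertion of adapters by a transposase, and the tissue came from adult male Sprague-Dawley rats. Each rat was injected intraperitoneally 4 times at intervals of 2 h, with methamphetamine (METH) at 10 mg/kg or with saline at 1 mL/kg. The subventricular zone (SVZ) had 3 saline and 2 METH libraries. Ammon's horn (CA), the dentate gyrus (DG) and the nucleus accumbens (NAc) had 4 of each. The 29 libraries came from 8 animals, each used for several regions, so libraries of different regions are not independent animals. Each library is bulk tissue, in which more cells with an open site and a more open site per cell cannot be told apart. The markers of the tissues' cell types were not analysed here.

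Members of the Myt1 family act in the differentiation of neurons. The SVZ lines the lateral ventricles and keeps neural stem cells in the adult brain, the NAc is part of the ventral striatum and consists mainly of GABAergic projection neurons, and DG and CA are the excitatory fields of the hippocampus. In a newer rat assembly (GRCr8) the protein-coding genes beside St18 are Pcmtd1 on the one side and Alkal1 and Rb1cc1 on the other, with the opioid receptor gene Oprk1 farther out. Rb1cc1 encodes a subunit of the kinase complex that starts autophagy. Gene bounds in rn6 were not used here, so whether an OCR is a promoter, intronic or intergenic was not determined, and no OCR is assigned to a gene beyond the name that the study gives.

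The libraries held 7.55 to 19.4 M counts in OCRs (1 M is 1000000), lowest in SVZ with 7.55 to 11.4 M. The 10% of OCRs with the highest mean level took 45.5% to 62.4% of a library's counts, a measure of how strongly the signal is concentrated. Tags in the peak names divided the libraries into 2 batches. Replicates 1 and 2 of CA, DG and NAc and the first saline library of SVZ formed batch 1, and the others formed batch 2. Both SVZ METH libraries were therefore in batch 2, and replicate 2 of them bore a further tag, not explained in the sources used here. Levels are counts per M (CPM) after upper-quartile scaling, and levels of different OCRs are compared only as CPM per kb of OCR length.

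The window was sparse in OCRs of the count table. It held 22 OCRs, where a span of the same width around any OCR of the table held a median of 57, and 10.1% of OCRs had as few or fewer around them. Its OCRs were 429 to 1342 bp long, with a median of 674 bp against 662 bp in the whole table. Of the 22, 14 lie on the lower-coordinate side of the St18 OCR and 7 on the other. No OCR lies between the St18 OCR and one at +218 kb (chr5:12781322-12782051), whereas on the other side the nearest lie at -4.15 kb (chr5:12559356-12559906) and -29.2 kb (chr5:12534273-12534950).

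A single OCR dominated the window. The -360 kb OCR (chr5:12203133-12204153) averaged 139 CPM per kb over the saline groups, and its regional means ran from 128 CPM per kb in SVZ to 148 CPM per kb in DG. The next were the +224 kb OCR (chr5:12786869-12787961) with 14.0 CPM per kb and the -378 kb OCR (chr5:12184960-12185598) with 11.3 CPM per kb. The St18 OCR had 8.05 CPM per kb. Over the 29 libraries it averaged 8.64 CPM per kb, against a median of 7.07 CPM per kb over all OCRs, and 37.9% of OCRs were higher.

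**Figure D1:**
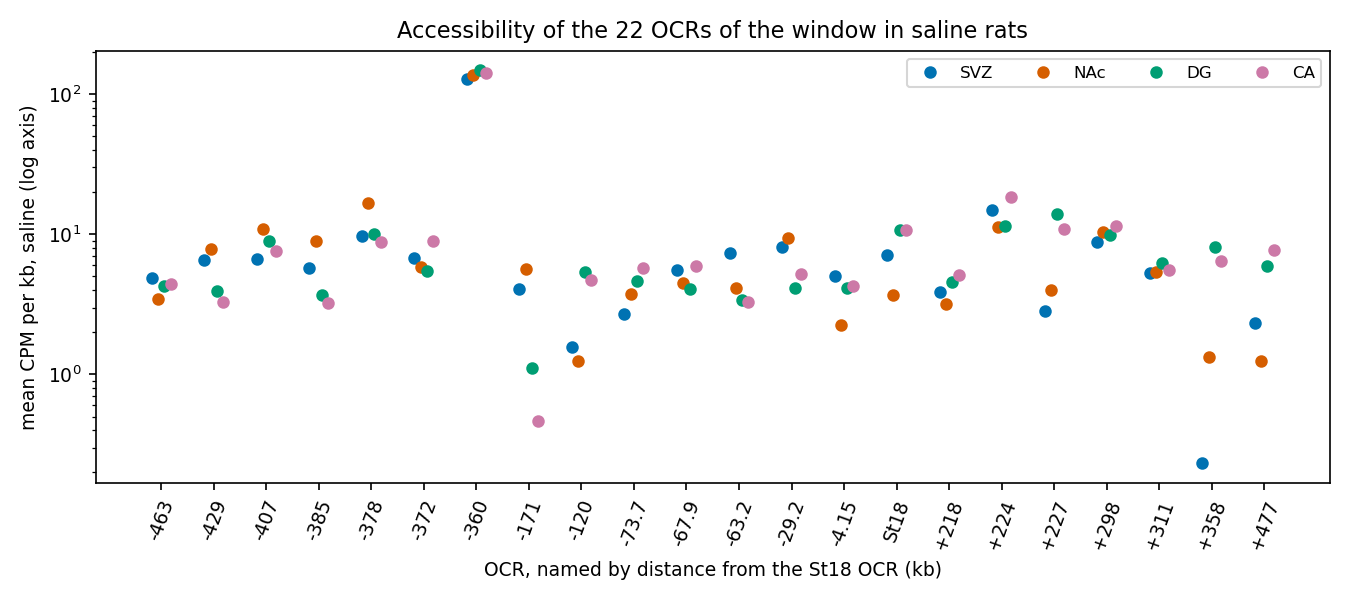
Mean CPM per kb of OCR length (log axis) of the 22 OCRs in the saline libraries of SVZ, NAc, DG and CA, in genomic order and labelled by distance from the St18 OCR in kb. The -360 kb OCR stands near 139 CPM per kb in all 4 regions, and the -171 and +358 kb OCRs show the widest spread between regions.

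The regions differed most at the +358 kb OCR (chr5:12921142-12921570), where the highest regional mean in saline rats was 35.0 times the lowest (which rests on 3 counts in SVZ), and at the -171 kb OCR (chr5:12392141-12393311), where it was 12.1 times the lowest. The ratio was 6.19 at the +477 kb OCR (chr5:13040419-13041071), 4.91 at the +227 kb OCR (chr5:12790226-12791221), 2.88 at the St18 OCR and 1.16 at the -360 kb OCR. The -171 kb OCR was highest in NAc, and the +227, +358 and +477 kb OCRs were highest in a hippocampal region.

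Peaks were called in each library by the authors' pipeline. A library had a peak at 6 to 11 of the 22 OCRs in SVZ, 10 to 14 in NAc, 9 to 15 in DG and 10 to 19 in CA, and the depth was also lowest in SVZ; its part in these numbers was not tested. The -378, -360, +224 and +298 kb OCRs had a peak in all 29 libraries. The +358 and +477 kb OCRs each had a peak in 11 libraries, 4 of DG and 7 of CA. The -171 kb OCR had a peak in 7 libraries, 6 of NAc and 1 of DG.

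At the St18 OCR, saline libraries of SVZ had 14.7, 4.69 and 4.96 CPM. The METH libraries of SVZ had 19.2 and 12.8 CPM. Saline replicate 1, the only SVZ library of batch 1, was above one of the METH libraries, so the groups overlapped. The mean was 8.11 ± 5.68 CPM (SD, n = 3) with saline and 16.0 ± 4.52 CPM (SD, n = 2) with METH. The log2 fold change was 0.98 (SE 0.67), which did not pass the threshold for a differentially accessible region (DAR), a fold above 1.5 with a false discovery rate (FDR) under 0.001 (edgeR quasi-likelihood test over all OCRs, FDR = 1). In batch 2 alone the log2 fold change was 1.73, with 2 libraries a group and an FDR of 0.644. Leaving out saline replicate 1 of SVZ from the fit of all libraries also gave 1.73, again without a call. This compares the same SVZ libraries as batch 2 alone and is not a second check. Leaving out each SVZ library in turn gave log2 fold changes from 0.66 to 1.73.

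At this OCR the call changed with the treatment of unwanted variation. The study's methods name RUVr, which estimates factors of unwanted variation from the residuals of a first fit, without the number of factors. With 10 factors, the counts were corrected for them and given a likelihood ratio test. The log2 fold change in SVZ was then 1.18 with an FDR of 1.68e-12, where 7% of the table passed. With 5 factors as covariates it was 1.08 with an FDR of 0.00946, past the fold and not the FDR threshold (0.0662% of the table passed). The estimate lay between 0.98 and 1.18 in these 3 fits, and its SE went from 0.67 to 0.25 with 5 factors and 0.15 with 10. By construction the factors take up spread between libraries of a group, and a test on corrected counts does not count them as fitted.

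In NAc the St18 OCR was low in every library. Saline libraries had 3.02, 4.79, 3.95 and 5.01 CPM, and METH libraries had 4.93, 6.09, 7.20 and 3.65 CPM. The groups overlapped, and the log2 fold change was 0.38 (SE 0.54, edgeR FDR = 1).

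In DG the saline libraries had 14.3, 3.75, 20.3 and 9.89 CPM and the METH libraries 8.52, 8.86, 17.2 and 7.72 CPM. Saline libraries held both the lowest and the highest value, and the log2 fold change was -0.19 (SE 0.52, edgeR FDR = 0.873). Its sign changed without saline replicate 3 of DG, where it was 0.18.

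In CA the saline libraries had 6.85, 4.0, 27.5 and 10.0 CPM and the METH libraries 3.96, 8.44, 16.5 and 20.6 CPM. The log2 fold change was 0.04 (SE 0.52, edgeR FDR = 1). The 4 libraries of batch 1 ran from 3.96 to 8.44 CPM and the 4 of batch 2 from 10.0 to 27.5 CPM, with no overlap. In DG the ranges were 3.75 to 14.3 CPM and 7.72 to 20.3 CPM, and in NAc 3.02 to 6.09 CPM and 3.65 to 7.20 CPM. The part of the batch in the level of this OCR was not tested.

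**Figure D2:**
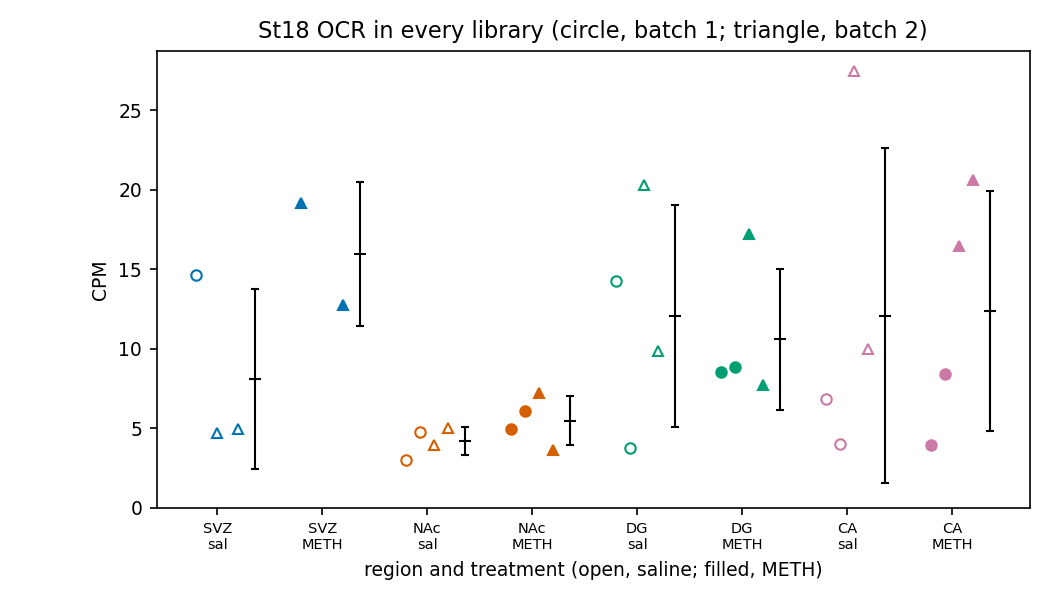
CPM of the St18 OCR in each of the 29 libraries by region and treatment, with the mean ± SD of each group beside the points (circles, batch 1; triangles, batch 2; open, saline; filled, METH). The NAc libraries lie between 3.02 and 7.20 CPM, while SVZ, DG and CA libraries spread from 3.75 to 27.5 CPM.

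The coefficient of variation of the St18 OCR among saline libraries was 70.1% in SVZ, 58.0% in DG, 87.2% in CA and 21.6% in NAc. Counting error alone would give 7.27% to 14.1% at these mean counts. The libraries of a group are of separate animals. Over the 29 libraries its log2 CPM had r = -0.44 with the share of counts in the top 10% of OCRs, which describes these libraries and carries no test.

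By region in saline rats, the St18 OCR averaged 12.1 ± 10.5 CPM in CA, 12.1 ± 6.99 CPM in DG, 8.11 ± 5.68 CPM in SVZ and 4.19 ± 0.905 CPM in NAc (SD, n = 4, 4, 3 and 4). The order of CA, DG and SVZ did not hold beyond the spread between libraries. NAc was lower than the mean of the other 3 regions by a log2 fold change of -1.33 (SE 0.49), which missed the threshold (edgeR FDR = 0.106). NAc against DG gave -1.52 (FDR = 0.0852) and NAc against CA -1.52 (FDR = 0.0801).

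The position of the summit inside the St18 OCR also varied between regions. The OCR had 1 peak in each of 22 libraries: 3 of 5 in SVZ, 5 of 8 in NAc, 7 of 8 in DG and 7 of 8 in CA. Summits of the 7 CA peaks lay 456 to 492 bases from the first base of the OCR. Those of DG had a median of 478 bases and ran from 460 to 829 bases, the last in METH replicate 4, which had the weakest of the DG peaks with a fold enrichment of 3.83. Summits of the 3 SVZ peaks lay at 714, 960 and 971 bases, and those of the 5 NAc peaks at 662 to 996 bases. The SVZ and NAc summits were all beyond the CA range. This was noticed in the peak lists and is given without a test since the regions share animals. Of the OCRs with a peak in all 29 libraries, the -360 kb OCR had a median summit at 569 bases in each region. The -378 kb OCR had medians of 312 bases in SVZ, 334 in NAc, 421 in DG and 430 in CA, with ranges that overlapped.

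**Figure D3:**
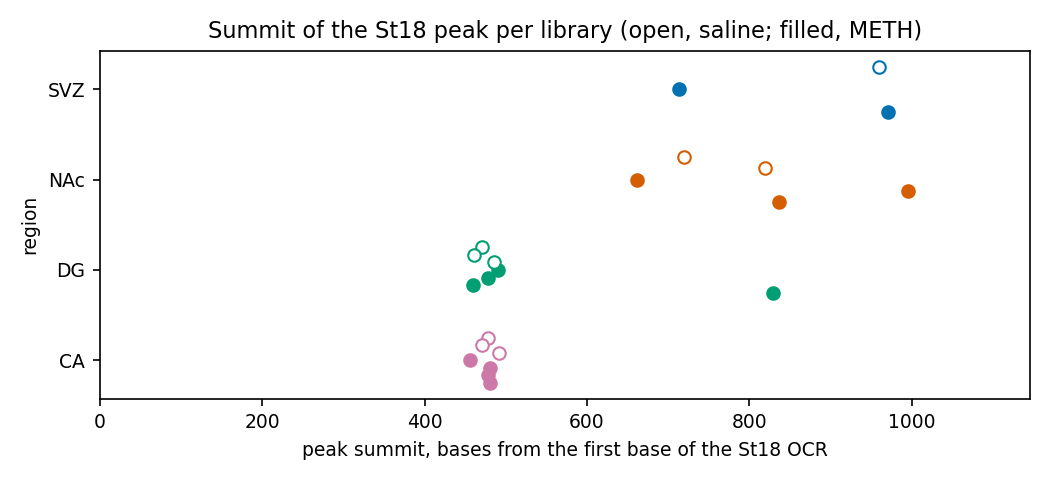
Distance in bases of the St18 peak summit from the first base of the OCR in the 22 libraries with a peak, by region (open, saline; filled, METH). CA summits group at 456 to 492 bases, and SVZ and NAc summits lie between 662 and 996 bases.

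Among saline rats, 2 OCRs of the window were called specific to NAc, which required a log2 fold change above 1 against the mean of the other 3 regions with an FDR under 0.01. Over all OCRs, 4.66% were called so. None of the 22 was called for SVZ (0.399% of the table), DG (0.155%) or CA (0.0814%). At an unadjusted p under 0.05, 5 OCRs were higher in NAc, 2 in SVZ, 4 in DG and 4 in CA, against 13% of the table for NAc, 9.74% for SVZ, 9.87% for DG and 8.51% for CA.

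The -171 kb OCR had 4.38, 5.2, 7.57 and 9.17 CPM in NAc saline libraries. It had 5.17, 3.91 and 5.32 CPM in SVZ. DG libraries had 1.72, 0.183, 1.85 and 1.46 CPM, and CA libraries 0.346, 0.263, 0.872 and 0.689 CPM. All NAc and SVZ values were above all DG and CA values. NAc exceeded the mean of the other regions by a log2 fold change of 2.12 (SE 0.36, edgeR FDR = 0.000803). SVZ exceeded it by 1.51 (SE 0.40), short of the threshold with an FDR of 0.0523, and CA was lower by -2.64 (SE 0.47, FDR = 0.00680). The NAc call ended without saline replicate 4 of NAc (log2 fold change 1.92) and also when the regions were compared in METH rats (1.84). Within batch 1, with 2 libraries each of NAc, DG and CA and 1 of SVZ, it was 2.05 and not called, and within batch 2 it was 2.21 and called.

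The -385 kb OCR (chr5:12178737-12179667) had 8.28, 6.62, 10.7 and 7.55 CPM in NAc saline libraries. SVZ libraries had 4.01, 5.47 and 6.62 CPM, DG libraries 2.95 to 4.17 CPM and CA libraries 2.01 to 4.5 CPM. The lowest NAc library equalled the highest SVZ library to 3 digits, and DG and CA lay below every NAc library. The log2 fold change of NAc against the others was 1.12 (SE 0.24, edgeR FDR = 0.00445). This call sat close to the threshold and was lost without any 1 of saline replicates 1 and 2 of SVZ or 1, 3 and 4 of NAc, with log2 fold changes of 1.07, 1.13, 1.12, 0.97 and 1.17. Within batch 1 it was 1.22 and within batch 2 1.10, neither of them called.

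Regions were also compared in pairs. No OCR of the window passed between SVZ and NAc or between DG and CA, and none in the table did (0% in both). Between SVZ and NAc 2 of the 22 had an unadjusted p under 0.05 (3.81% of the table), and between DG and CA 1 of them (0.893%). Between SVZ and DG 2 OCRs passed, both less accessible in SVZ (0.36% of the table in this direction). Between SVZ and CA 2 passed, 1 in each direction (2.42% higher and 0.272% lower in SVZ). NAc against DG gave 3, of which 2 were more accessible in NAc (4.74%) and 1 less (1.49%), and NAc against CA gave 3, 2 more (5.77%) and 1 less (1.27%). These comparisons share their libraries and are not independent of each other.

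The +227 kb OCR was more accessible in DG. Its DG saline libraries had 15.2, 12.9, 10.5 and 16.9 CPM, above all SVZ libraries (1.16, 3.65 and 3.66 CPM) and all NAc libraries (2.24, 7.03, 4.02 and 2.70 CPM). In CA it had 8.45, 7.48, 8.14 and 19.5 CPM. SVZ against DG gave a log2 fold change of -2.29 (SE 0.48, edgeR FDR = 0.00904) and NAc against DG -1.80 (SE 0.42, FDR = 0.00812). Both calls lay near the threshold: the first was lost on leaving out any 1 of the 7 SVZ and DG saline libraries (-2.53 to -1.92), and the second on leaving out any 1 of the DG libraries or replicate 1, 3 or 4 of NAc (values from -1.91 to -1.61). Only 2264 bp separate it from the +224 kb OCR, which had a peak in every library and no regional call.

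The +358 kb OCR was nearly closed in SVZ and NAc saline rats. Its counts in SVZ saline libraries were 2, 1 and 0, or 0.211, 0.0869 and 0 CPM, and a count of 0 at this depth allows up to 0.354 CPM. NAc saline libraries had 0.195, 0.815, 0.75 and 0.539 CPM. DG saline libraries had 3.43, 2.83, 3.09 and 4.54 CPM, and CA saline libraries 2.01, 0.722, 2.11 and 6.24 CPM. All DG libraries were above all SVZ and NAc libraries. The fitted log2 fold change of SVZ was -4.97 against DG (SE 0.91, edgeR FDR = 0.00420) and -4.65 against CA (SE 0.91, FDR = 0.00467). With 3 SVZ counts in all these sizes depend on the prior count of the fit. The ratio of summed counts per M was 33.7 for DG over SVZ (exact 95% interval 11.3 to 165) and 30.7 for CA over SVZ (10.4 to 150), for counting error alone. The call against DG was lost without saline replicate 2 or 3 of SVZ (-4.86 and -4.5) or 4 of DG (-4.81), and the call against CA without replicate 2 or 3 of SVZ (-4.55 and -4.18) or 1 or 4 of CA (-4.78 and -3.85).

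DG against the mean of the other regions gave 2.62 at the +358 kb OCR (SE 0.50), just outside the threshold with an FDR of 0.0115. With the replicate number as a block the FDR was 0.00900 and the OCR was called DG-specific, and with the animal as a block it was 0.0106 and not called. In SVZ, saline replicates 2 and 3 are different animals from replicates 2 and 3 of the other regions. The replicate block therefore joins libraries of different animals there. CA against the others gave 2.20 (FDR = 0.0192).

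The +477 kb OCR was the member most like the St18 OCR over the 29 libraries. Saline libraries of CA had 4.02, 0.985, 10.8 and 4.45 CPM, those of DG 2.48, 1.37, 7.73 and 3.88 CPM, those of SVZ 1.42 to 1.65 CPM and those of NAc 0.390 to 1.23 CPM. NAc was below CA by a log2 fold change of -2.60 (SE 0.64, edgeR FDR = 0.00982), a call at the edge of the threshold that was lost without any 1 of the 4 NAc libraries or replicate 1, 3 or 4 of CA (-2.94 to -1.93). As at the St18 OCR, the highest saline library in both DG and CA was replicate 3.

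**Figure D4:**
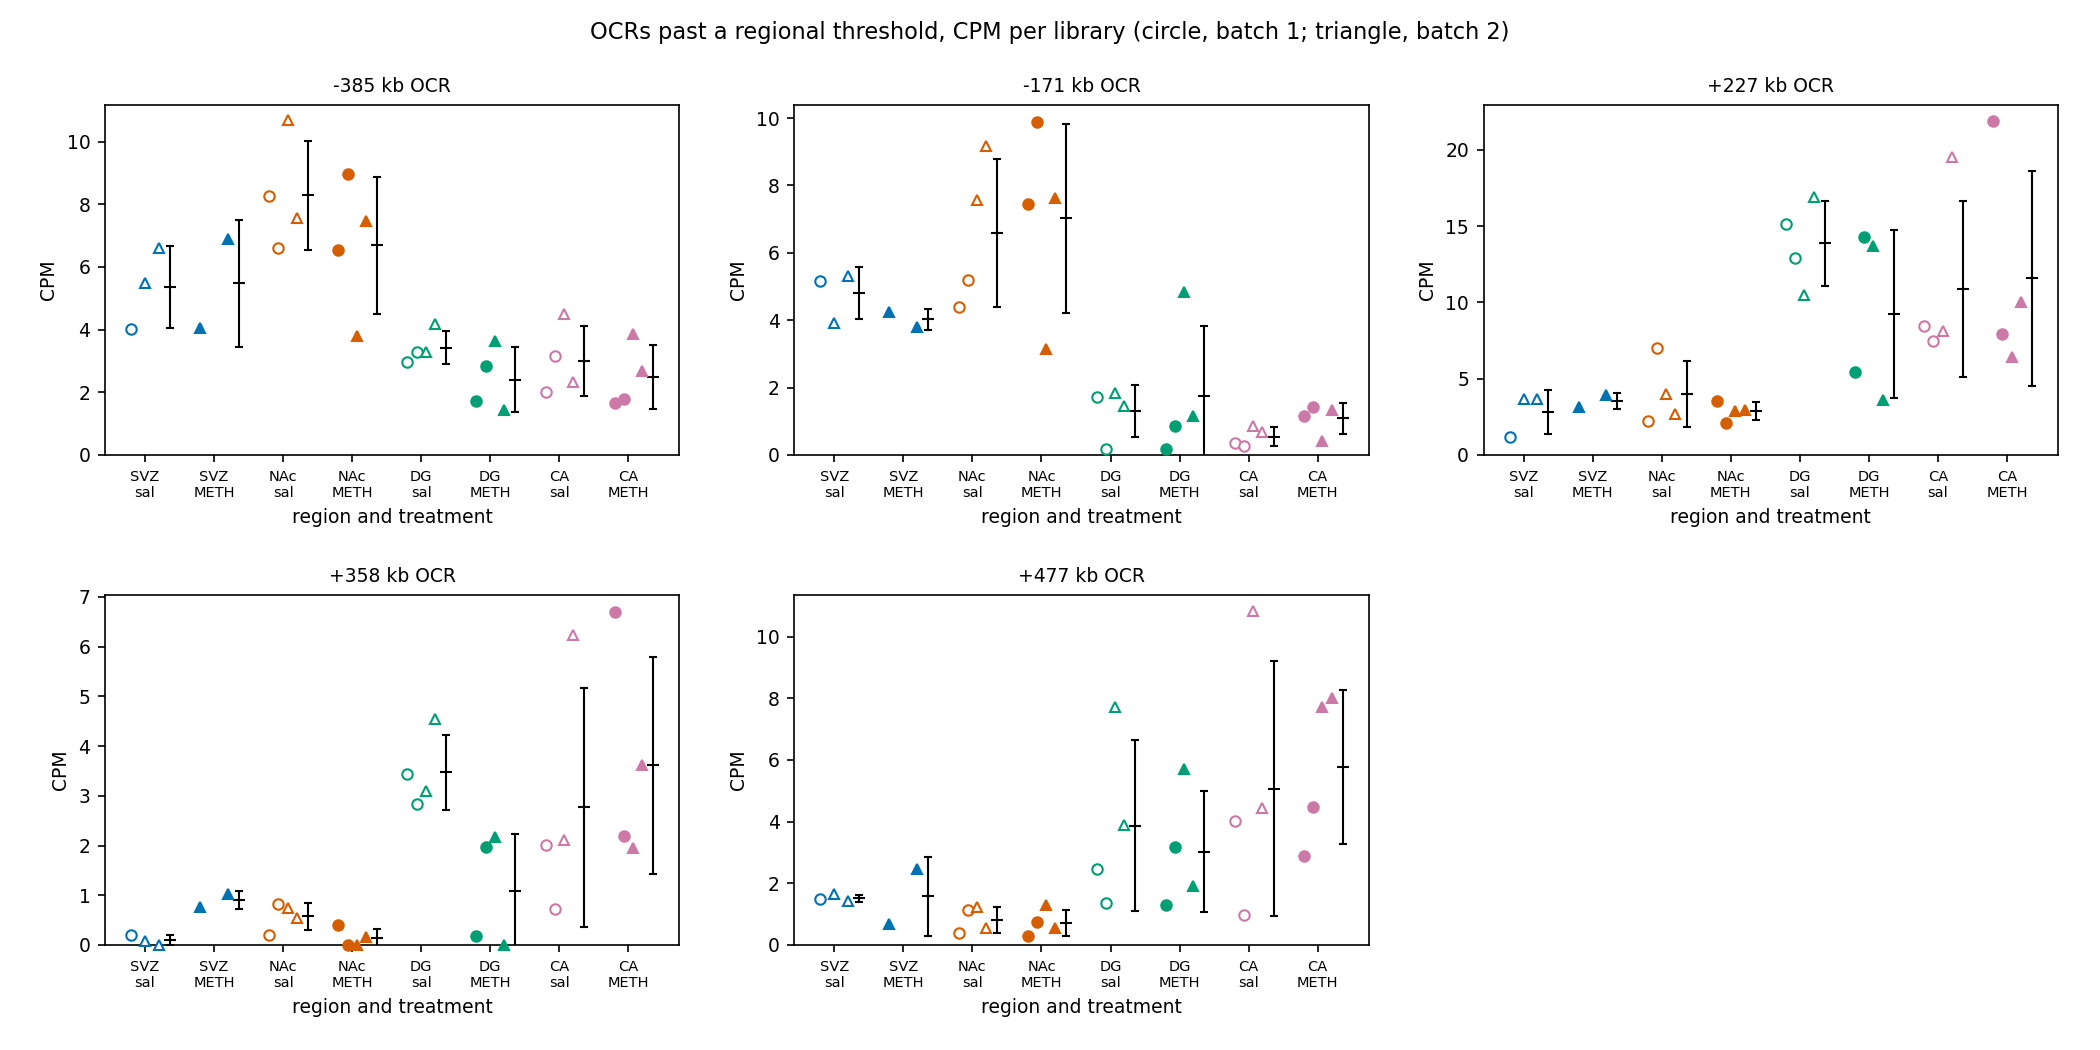
CPM per library of the 5 OCRs with a regional call, at -385, -171, +227, +358 and +477 kb, by region and treatment, with the mean ± SD of each group (circles, batch 1; triangles, batch 2; open, saline; filled, METH). The -385 and -171 kb OCRs are highest in NAc, with saline libraries from 6.62 and 4.38 CPM upwards, and the other 3 are highest in DG and CA.

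Likeness to the St18 OCR was measured as Pearson's r of log2 CPM over the 29 libraries. It was 0.70 for the +477 kb OCR, 0.60 for the -4.15 kb OCR and 0.50 for the -463 kb OCR (chr5:12099958-12100723). Of all OCRs in the table, 3.48%, 7.55% and 13.5% were at least as alike, so OCRs elsewhere in the table were more alike to it than any in the window. After the group means were removed, r was 0.71, 0.37 and 0.53. Over the 8 group means the order was different, with 0.91 for the -4.15 kb OCR, 0.74 for the +218 kb OCR, 0.64 for the -120 kb OCR and 0.61 for the +477 kb OCR. The libraries share animals and the concentration of signal described above, and these values are descriptions without a test. The -4.15 kb OCR, the nearest of all, had 4.11, 3.30 and 0.945 CPM in SVZ saline libraries and 0.886 to 2.05 CPM in those of NAc, and it had a peak in 5 libraries.

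METH was then compared with saline for every OCR of the window, SVZ first. With edgeR no OCR passed the DAR threshold in any region, and none of the table did (0% in SVZ, NAc, DG and CA). With DESeq2 none of the 22 passed either, and 8 OCRs of the table did in SVZ (0.00814%). At an unadjusted p under 0.05, 1 of the 22 was more accessible in SVZ (1.27% of the table) and none less accessible (2.2%). None passed in NAc (2.45% in either direction) or in CA (0.82%). In DG 2 were more accessible (3.57%) and 1 less (6.28%). Medians of the log2 fold change over the 22 OCRs were 0.19 in SVZ, -0.07 in NAc, -0.04 in DG and 0.05 in CA, beside -0.01, -0.01, -0.15 and 0.02 over all OCRs.

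In SVZ 17 of the 22 OCRs had a positive and 5 a negative log2 fold change, and 3 exceeded a fold of 1.5 in either direction (19.3% of the table). The 22 were measured in the same libraries, so their signs are not independent of each other. Over all OCRs the median was -0.01, and the share with a positive change is not given here. METH and saline libraries did not overlap at 2 OCRs, both higher with METH (10.6% of the table in this direction and 9.62% in the other). The first was the +358 kb OCR with 8 and 10 counts in the METH libraries, 0.771 and 1.03 CPM, against 2, 1 and 0 counts with saline. The summed counts, 18 against 3, gave a ratio of 9.31 per M with an exact 95% interval of 2.72 to 49.3 for counting error alone. The fitted log2 fold change was 3.03 (SE 1.32, unadjusted p = 0.0297 in edgeR's quasi-likelihood test, FDR = 1). With 5 RUVr factors it was 3.01 with an FDR of 0.0436, not past the threshold, and with 10 factors 3.23 with an FDR of 0.000126, past it. In SVZ these fits called 0.0662% and 7% of the table. The METH levels of the +358 kb OCR were still below every DG saline library.

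The second was the -407 kb OCR (chr5:12156990-12157472), with 4.24 and 4.84 CPM with METH and 3.59, 2.87 and 3.19 CPM with saline. Its log2 fold change was 0.50 (SE 0.43, edgeR FDR = 1). The range within each group was narrow, and the change was close to its SE in the model. With 10 RUVr factors the -463 kb OCR was also called in SVZ, at 0.78 (likelihood ratio test, FDR = 0.000245). Its METH and saline libraries overlapped.

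In NAc the groups did not overlap at the -463 kb OCR, which was higher with METH (1.04% of the table in this direction and 1.91% in the other). Saline libraries had 3.02, 2.95, 2.11 and 2.47 CPM and METH libraries 4.03, 4.43, 3.14 and 3.58 CPM. The log2 fold change was 0.53 (SE 0.31, edgeR FDR = 1). The most negative change in NAc was -2.01 at the +358 kb OCR, which had 0 to 4 counts in METH and 2 to 11 in saline libraries, with overlap. With 10 RUVr factors it was -2.56 (likelihood ratio test, FDR = 0.000909), the 1 call of the window in NAc in that fit (5.14% of the table).

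In DG 1 OCR did not overlap, the +358 kb OCR, which was lower with METH (2.01% of the table in this direction and 0.524% in the other). METH libraries had 0.172, 1.98, 2.17 and 0 CPM, against 2.83 to 4.54 CPM with saline, and the count of 0 allows up to 0.286 CPM. Its log2 fold change was -1.68 (SE 0.79, unadjusted p = 0.0424, edgeR FDR = 0.493). With 5 RUVr factors it was -2.31 with an FDR of 0.000192 and with 10 factors -2.66 with an FDR of 3.13e-15, both past the DAR threshold. The 2 OCRs with a higher level in DG at an unadjusted edgeR p under 0.05 were the -67.9 kb OCR (chr5:12495571-12496159), with a log2 fold change of 1.13 (SE 0.41), and the +224 kb OCR, with 1.14 (SE 0.51), both with an FDR of 0.493. The first of them was outside the rule for named OCRs and was picked after its values were seen. At both, METH replicate 3 of DG was the lowest METH library, with 2.07 and 8.27 CPM, where the other 3 had 6.0 to 6.80 and 28.6 to 38.1 CPM. In this library the top 10% of OCRs took 47.1% of counts, against 56.8% to 62.4% in the other 3. With 10 RUVr factors (likelihood ratio test) the -67.9 kb OCR had 0.89 (FDR = 1.95e-05) and the +224 kb OCR 0.95 (FDR = 2.79e-15). The +227 kb OCR was lower with METH in that fit, at -0.76 (FDR = 1.90e-07), and all of these passed the DAR threshold. With 5 factors the +224 kb OCR passed at 1.02 (FDR = 0.000119), and the other OCRs of this group did not. In DG these fits called 23.4% and 4.56% of the table.

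In CA no OCR of the window was without overlap between METH and saline (0.484% of the table higher and 0.363% lower).

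**Figure D5:**
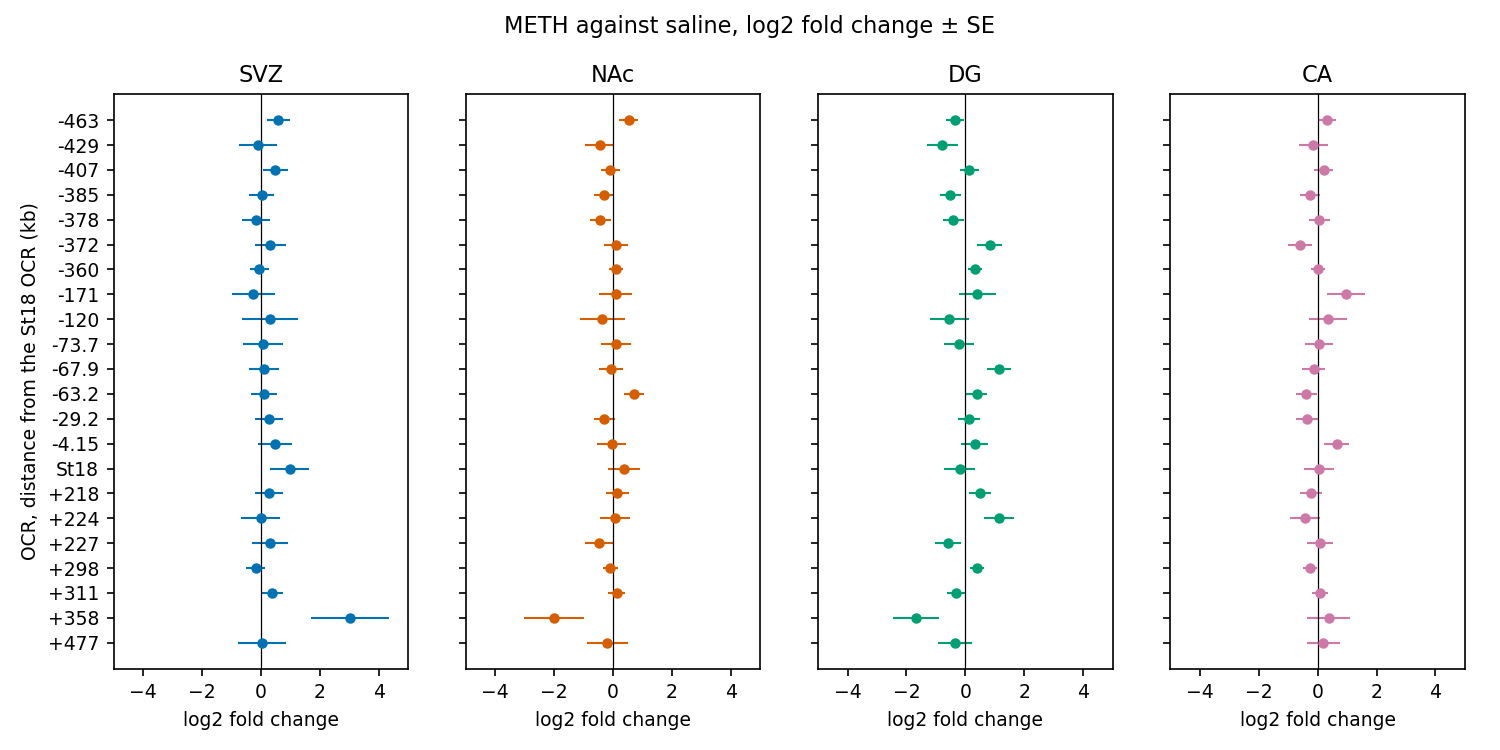
Log2 fold change of METH against saline with its SE for the 22 OCRs in each region, in genomic order and labelled by distance from the St18 OCR in kb. Most lie within 1 of zero; the +358 kb OCR is at 3.03 in SVZ, -2.01 in NAc and -1.68 in DG, and the St18 OCR is at 0.98 in SVZ.

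The METH effect in SVZ was compared directly with that in the other regions by an interaction term. No OCR of the window passed the DAR threshold against NAc, DG or CA, and none of the table did (0% in each). For the St18 OCR the difference was 0.60 (SE 0.86) against NAc, 1.17 (SE 0.85) against DG and 0.94 (SE 0.85) against CA on the log2 scale, with edgeR FDR of 1, 0.870 and 1. With 10 RUVr factors and a likelihood ratio test it was 1.38 against DG (FDR = 1.35e-10) and 1.03 against CA (FDR = 7.78e-06). Both passed the DAR threshold, as did 15.4% and 4.05% of the table. The St18 OCR did not pass against NAc with 10 factors, or in any of the 3 comparisons with 5. The +358 kb OCR had the largest difference, 5.04 (SE 1.67, unadjusted p = 0.00549, edgeR FDR = 1) against NAc and 4.71 (SE 1.53, unadjusted p = 0.00475, edgeR FDR = 0.870) against DG. It was the only member with an unadjusted p under 0.05 in these comparisons, where 2.48% and 4.73% of the table had one; against CA no member had (1.58%). With 10 RUVr factors the difference at this OCR was 5.79 against NAc (FDR = 1.20e-07) and 5.89 against DG (FDR = 3.82e-12), and with 5 factors 5.32 against DG (FDR = 0.000613), all past the DAR threshold. With 10 factors the -463 kb OCR (1.23), the +224 kb OCR (-0.80) and the +227 kb OCR (1.35) also passed against DG. Their likelihood ratio FDRs were 1.15e-05, 0.000154 and 3.29e-05. The 3 comparisons share the SVZ libraries.

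Summed over the 22 OCRs, a library had 192 to 350 CPM, of which the St18 OCR took 1.21% to 12.3%. METH minus saline was 12.6 CPM in SVZ, 9.55 CPM in NAc, 48.9 CPM in DG and -2.98 CPM in CA, with a pooled SD between libraries of 26.6, 33.3, 47.8 and 41.7 CPM. Without 1 library the difference ran from -3.00 to 27.0 CPM in SVZ, -1.10 to 26.4 CPM in NAc, 32.3 to 77.0 CPM in DG and -21.4 to 13.3 CPM in CA, so its sign held in DG alone. The -360 kb OCR alone made up 47.3% to 67.2% of a library's sum. It averaged 126 CPM with METH and 130 CPM with saline in SVZ, and 152 and 141 CPM in NAc. In DG it averaged 190 and 151 CPM, and in CA 145 and 145 CPM. Over the 29 libraries its log2 CPM had r = 0.94 with the share of counts in the top 10% of OCRs. The part of this share in the summed CPM was not tested. The share of the 22 OCRs with a peak was higher with METH by 12.9 percentage points in SVZ, 3.41 in DG and 11.4 in CA, and the difference was -1.14 in NAc, with a pooled SD of 5.97, 10.8, 13.3 and 6.63 points. Over all OCRs of the table the share with a peak differed by 3.41 points in SVZ, -4.89 in DG, 6.93 in CA and -3.27 in NAc. What the number of peaks called in a library contributes to the difference in the window was not tested.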

How the data were processed

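ATAC-seq libraries were processed by the authors with AIAP at default parameters, and peaks were called in each library and merged into consensus OCRs with mergeBed (bedtools). Tool versions, how reads were shifted for the transposase and how they were counted: not given in the sources used here. A deposited table holds raw read counts per OCR, not normalized (rn6). The deposited peak lists give each peak's fold enrichment over local background, a ratio computed by the authors, together with p and q values as −log10, from the authors' peak caller.

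Counts were fitted in R 4.3.3 with edgeR 4.0.16 (upper-quartile normalization, robust quasi-likelihood F test, Benjamini-Hochberg FDR over all 98237 OCRs), and tables were made with Python 3.11.15. All 29 libraries in 8 groups entered the METH and interaction tests, and the 15 saline libraries the regional tests; pairs of regions used the region-specific cutoffs in either direction. Log2 CPM used a prior count of 2. The SE of a log2 fold change was its absolute value divided by the square root of the F or likelihood ratio statistic. It therefore depends on the test used. DESeq2 1.42.0, TMM, a filter of 1 CPM in 4 libraries, RUVr, blocks, batch and leaving out libraries were alternatives, with RUVr coded here from its formula. The edgeR fit alone was tested on simulated counts, for METH against saline in SVZ and for NAc against the other regions. Those counts held no batch or animal effects, and the RUVr and DESeq2 fits were not tested in this way. An overlap of 1 bp joined a peak to an OCR. Intervals and floors (3 counts) cover counting error only.

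Batch and animal were read from the peak names. Saline libraries of NAc, DG and CA with the same number came from 1 animal. Deviations of saline libraries of 1 animal from their group means correlated with r from -0.34 to 0.66 over 21 pairs, 11 of them above 0.1. METH and saline libraries with the same number are different animals (r from -0.26 to 0.69, 7 of 14 pairs above 0.1).

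Named OCRs were the St18 OCR, its 2 nearest on each side, the 3 highest in CPM per kb, those without overlap between METH and saline (2 each way per region), up to 3 region-specific OCRs per region or the highest where none was called, those past a METH or interaction threshold, and the 3 most like the St18 OCR. OCRs past a threshold between pairs of regions were added after their values were seen. The window and these lists were chosen with earlier results of these data known. Sequences of the OCRs and rn6 gene annotation were not used.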

Additional observations from a re-analysis of the deposited data

Results flagged for a closer look

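Each of the 22 OCRs was examined in the 6 groups of 4 libraries, 132 sets in all, and in 7 of them 1 library stood farther from the others than Dixon's test allows at the 95% level, which chance gives in about 1 of 20 sets. The highest library had 17.2 CPM at the St18 OCR in DG METH (replicate 3), 19.5 CPM at the +227 kb OCR and 5.05 CPM at the -120 kb OCR in CA saline (replicate 4 for both), 5.05 CPM at the -29.2 kb OCR in CA METH (replicate 3), 2.05 CPM at the -4.15 kb OCR in NAc saline (replicate 1) and 19.0 CPM at the +224 kb OCR in NAc METH (replicate 3). The lowest library had 2.07 CPM at the -67.9 kb OCR in DG METH (replicate 3). The -120 kb OCR was outside the rule for named OCRs.

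The +358 kb OCR differed in opposite directions with METH. Every METH library was above every saline library in SVZ (log2 fold change 3.03) and below in DG (-1.68). In SVZ this rests on 18 summed METH counts against 3 with saline. The OCR was picked for these values, so the interaction on them is a description and not independent evidence. That interaction had an unadjusted p of 0.00475 and an FDR of 0.870 in edgeR, so it did not pass the correction over all OCRs. With 5 and 10 RUVr factors it did (FDR of 0.000613 and 3.82e-12), as did 0.524% and 15.4% of the table.

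Peaks also occurred at places of the window that the count table does not hold. Of 521 peaks in the window, pooled over the libraries, 164 (31.5%) overlapped no OCR of the table. Over the whole genome this share ran from 9.43% to 35.5% of a library's peaks, with a median of 17.5%. The 164 peaks fell on 58 loci, of which 28 had a peak in a single library. The -124 kb locus (chr5:12439208-12439485) had a peak in 17 libraries, 11 of 14 METH and 6 of 15 saline, with 4 METH and 1 saline library in NAc; this difference was not tested. The -279 kb locus (chr5:12284217-12284467) had one in 20 libraries, 7 METH and 13 saline. Neither could be compared by counts, since the table holds no row for them.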

How the results depend on the processing

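No METH or interaction call arose in the window under DESeq2, TMM, the filter, the tagwise likelihood ratio test, the replicate block (0 calls in each comparison), the batch term, the top-decile share, the libraries of a region alone, either batch alone (batch 1 holds no SVZ METH library) or any left-out library (0 to 0). Calls arose with RUVr alone. With 10 factors there were 3 in SVZ, 1 in NAc and 4 in DG, and for the SVZ effect minus that in NAc, DG and CA 1, 5 and 1 (5.37%, 15.4% and 4.05% of the table). With 5 factors there were 2 in DG and 1 for SVZ minus DG (0.524% of the table). In SVZ, NAc and DG these fits called 6872, 5052 and 22974 OCRs of the table with 10 factors (7%, 5.14% and 23.4%) and 65, 14 and 4482 with 5 (0.0662%, 0.0143% and 4.56%), against 0 in the reported fit. The study's methods do not state a number of factors. At the St18 OCR the METH effect changed sign in DG with the top-decile share (0.33) and in CA under DESeq2 (-0.023) and within batch 2 (-0.0085), with leave-one-out ranges of -0.52 to 0.18 in DG and -0.32 to 0.83 in CA.

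Among regional calls, without 1 library they numbered 0 to 2 for NAc-specific OCRs, 0 to 2 for DG, 0 to 1 for CA, 0 to 1 for SVZ against DG, 0 to 2 for SVZ against CA, 0 to 2 for NAc against DG and 1 to 4 for NAc against CA. The shares of the table called without 1 library are not given here, so these ranges cannot be told apart from a change over all OCRs. With METH libraries instead they were 0 for NAc, SVZ against DG, SVZ against CA and NAc against DG, and 5 for NAc against CA (2.18%, 0.51%, 1.38%, 4.17% and 7.36% of the table in this order). Within batch 1, with 1 or 2 libraries a group, they were 0 for NAc and for the 4 pairs with calls, as in the whole table (0%). Within batch 2 they were 1 for NAc, CA, SVZ against DG and NAc against DG (3.33%, 2.12%, 1.22% and 4.41%). TMM left 1 for SVZ against DG and 1 for NAc against DG (1.39% and 5.25%), and the fit of all 29 libraries left 1 for SVZ against DG and 1 for SVZ against CA (2.03% and 3.06%). DESeq2 called 2 for DG, 1 for CA, 6 for NAc against DG and 5 for NAc against CA (1.31%, 1.35%, 11.6% and 12.5%). The tagwise test called 1 for SVZ, 2 for DG, 1 for CA, 6 for NAc against DG and 5 for NAc against CA (2.41%, 2.05%, 1.27%, 11.4% and 11.9%). The top-decile share gave 1 for SVZ, 2 for DG and 5 for NAc against DG (0.942%, 1.79% and 11.4%), and the batch term 1 for DG (0.528%). The replicate block gave 1 for DG (0.283%) and 3 for SVZ against DG (2.89%), with the other regional comparisons at their reported number; the animal block moved none. The causes were not tested.

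Numbers of calls within a batch, regional comparisons within a batch, and leaving out libraries from the summed CPM, were chosen after seeing the data. The +358 kb OCR could not be fitted in the SVZ libraries alone. METH minus saline in the percent of OCRs with a peak moved by less than 1 SD under a stricter q value, an overlap of 50% or a left-out library. Depth limits the low OCRs most: at the +358 kb OCR counts were 0 in 4 libraries.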
